A study of Arabidopsis thaliana with 18 samples.

Results

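Leaves of Arabidopsis thaliana wild type plants (wt, accession Col-0) that had spent their last 2 days in cycling light were compared with leaves of wt plants that had never left constant light. The comparison used the 6 wt libraries, 3 per light condition, of the 18 RNA-seq libraries in the series, chosen by the genotype and light named in the sample labels. All plants were germinated and grown in constant light. In the cycling group, 17 days of constant light were followed by 2 days of 16 h light and 8 h dark. The 24 h light group stayed in constant light for the full 19 days. Every plant was harvested on day 19, at 1 h after subjective dawn, and each library pooled leaves of 3 plants. The series also holds *fc2* (genotype fc2-1) and *fc2 pub4* (genotype fc2-1 pub4-6) plants under both lights. *FC2* encodes plastid ferrochelatase 2, an enzyme of heme synthesis, and *PUB4* encodes a U-box E3 ubiquitin ligase. The wt plants served as the reference genotype, in which both genes are intact. Leaves were taken at 1 time of day, so a shift in the hour at which a gene peaks and a change in its mean level over the day cannot be told apart.

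The plant circadian clock is built from transcription factors that repress each other in turn. CCA1 and LHY peak around dawn and repress genes of the evening, the PRR proteins follow through the day and repress *CCA1* and *LHY*, and the evening complex of ELF3, ELF4 and LUX closes the loop after dusk. Alternation of light and dark sets the hour of this clock, whereas under constant light it runs freely and plants can drift apart from each other. Light and dark also reach leaf transcripts through photoreceptors and through starch, which leaves build by day and break down at night.

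The 3 cycling libraries held between 26994499 and 39382316 counts and the 3 libraries of 24 h light between 27124449 and 30205043 counts. Plastid loci took 0.0212% of counts in cycling and 0.0203% in 24 h light (exact permutation test, two-sided, p = 0.7, n = 3 per group, smallest possible p 0.1). Mitochondrial loci took 0.00495% to 0.00530% in cycling and 0.00542% to 0.00805% in 24 h light, with no overlap (same test, exact p = 0.1, n = 3 per group). The replicates of cycling light lay closer to each other than those of 24 h light. The chi-square per gene between pairs of libraries was 4.4 to 5.52 in cycling and 10.5 to 40.3 in 24 h light, the highest value being that of 24 h replicates 1 and 3, so results that rest on either are given with and without it. Neither gene targeted in the mutants was called between the lights in wt, with *FC2* at 158 ± 7.57 (SD, n = 3) and 144 ± 19.9 CPM (n = 3) in cycling and 24 h light (log2FC 0.13, padj = 0.258) and *PUB4* at 24.2, 23.8 and 22.7 CPM and 23.4, 25.5 and 25.9 CPM (log2FC -0.08, padj = 0.361). Here and below, CPM (counts relative to library size) are scaled by the trimmed mean of M values (TMM), log2FC is cycling over 24 h light, and padj is the Benjamini-Hochberg adjusted p of edgeR's quasi-likelihood test. SE is the absolute log2FC divided by the square root of the F statistic of that test, and is approximate for genes with few counts.

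Markers of leaf mesophyll, the photosynthetic tissue, were abundant in every library, their summed level being 44142 to 47056 CPM in cycling and 35773 to 39222 CPM in 24 h light. Of these 4 markers *RCA* alone was called (log2FC 0.66), and the lowest log2FC among them was -0.21. The sums of guard cell and epidermis markers were 781 to 789 CPM against 543 to 657 CPM, and those of phloem companion cell markers 434 to 482 CPM against 375 to 424 CPM. The 2 phloem markers were called in opposite directions, *AHA3* higher (log2FC 0.46) and *SUC2* lower (log2FC -0.31). The call of *SUC2* was lost without cycling replicate 1 or 3 or without 24 h replicate 2. Flower bud markers summed to 7.88 to 21.8 CPM in cycling and 3.83 to 7.87 CPM in 24 h light, and shoot apex markers to 9.95 to 19.0 CPM and 4.39 to 9.76 CPM. All 7 flower bud markers had a log2FC above 0, and of them *SEP1* passed the test (log2FC 1.53), a call that was lost without cycling replicate 2 or 3 or without 24 h replicate 2. Root markers stayed at 0.183 to 1.01 CPM, with *RHD6*, *PLT1* and *PLT2* at 0. Fewer cells of a type and less RNA per cell cannot be told apart in such libraries, and the part of these tissues in the results below was not tested.

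Of 19600 genes tested, 440 (2.24%) were differentially expressed genes (DEGs, absolute log2FC above 1.5 and padj below 0.01) that were higher in cycling light, and 330 (1.68%) were lower, together 3.93% of the genes. Without the fold cutoff, 3763 genes (19.2%) were higher and 3154 (16.1%) were lower, 35.3% in all. These are called "called" genes below. Most of the called genes moved little: 5178 of them had an absolute log2FC under 1, and their median absolute log2FC was 0.62. The 3 libraries of one light did not overlap with the 3 of the other for 58.9% of all genes and for all 770 DEGs. Scaling decided the balance between directions. With library size alone in place of TMM, the median log2FC of all genes shifted from -0.00 to -0.14, the called genes became 2656 higher and 4980 lower, so that the share of called genes that were higher went from 54.4% to 34.8%, and the DEGs became 345 higher and 420 lower, 45.1% higher in place of 57.1%. None of the called genes in the lists described below changed its sign with that scaling, and where it moved a list's count by over 1.5 times the new count is given. Shares of a list that were called are to be read against the 19.2% higher and 16.1% lower of all genes.

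Reads of overlapping genes may not have been told apart. Lengths and overlaps here and below were counted over exons. The share of the gene's length that lies under a gene of the opposite strand was 35.8% for *SEP1*, 31.8% for *COL2*, 25.4% for *CO*, 25.3% for *BAM3* and between 11.2% and 29.6% for *RVE1*, *PIF7*, *LUX*, *VDE*, *PCNA2* and *COR15B*, and larger shares are given beside the genes concerned. *LSF1* overlaps a gene on its own strand over 13.8% of its length, and 13.7% of *LHCB1.4* is repeated elsewhere.

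The genes that normally peak around dawn were higher in cycling light. Of 13 genes of the morning clock list, 12 rose and 1 fell, with a median log2FC of 2.23, against a median of -0.00 over all genes. *CCA1*, a MYB transcription factor at the core of the clock, was at 908, 926 and 901 CPM in the cycling libraries and at 98.9, 159 and 202 CPM in 24 h light (log2FC 2.57, SE 0.20, padj = 3.48e-06). Its partner *LHY* was at 1474, 1549 and 1458 CPM in cycling and at 184, 266 and 288 CPM in 24 h light (log2FC 2.60, SE 0.15, padj = 3.23e-07). For both genes all cycling libraries lay far above all libraries of 24 h light. The *LNK* genes, whose proteins act with the RVE8 activator, followed the same course. *LNK2* was at 1489, 1556 and 1520 CPM in cycling and 186, 296 and 492 CPM in 24 h light (log2FC 2.23, SE 0.27), and the other 3 had log2FC values of 2.54 (*LNK1*), 2.71 (*LNK3*) and 2.71 (*LNK4*). *PRR9*, the pseudo-response regulator expressed earliest in the day, had the highest log2FC of the list. Its libraries read 72.5, 75.8 and 75.0 CPM in cycling and 1.29, 4.00 and 9.66 CPM in 24 h light (log2FC 3.93, SE 0.40, padj = 2.12e-05, or log2FC 4.84 without 24 h replicate 3), and 41.1% of its sequence lay in stretches of 50 bases that occur elsewhere in the genome, which makes its level uncertain.

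Among the REVEILLE genes, which encode MYB factors related to CCA1, 5 of the 6 listed rose. *RVE8*, an activator of evening genes, was at 215 ± 2.11 CPM in cycling and 75.1 ± 7.75 CPM in 24 h light (n = 3, log2FC 1.52, SE 0.075, padj = 1.48e-07), and *RVE7*, *RVE1*, *RVE6* and *RVE4* had log2FC values of 1.2, 1.12, 1.05 and 0.72. The level of *RVE7* is uncertain too, since 58.8% of its sequence is repeated elsewhere. *RVE2* went the other way, at 17 ± 0.327 CPM (SD, n = 3) in cycling and at 138, 106 and 61.2 CPM in 24 h light (log2FC -2.58, SE 0.24, padj = 1.11e-05). It was the only member of the morning list that was lower in cycling light, again with no overlap between the groups.

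The morning genes also differed between the lights in the spread among replicates. Across the 13 morning genes the log2 range over 3 libraries had a median of 0.083 in cycling and 1.02 in 24 h light, and it was wider in 24 h light for 13 of 13 genes. Replicate 3 of 24 h light was the highest of its group for 11 of them, and replicate 1 the lowest for 12. Over all 19600 genes the medians were 0.17 and 0.22, and 59.5% were wider in 24 h light. For the day and evening clock list, described next, they were 0.27 and 0.47, and 11 of 17 genes (64.7%) were wider in 24 h light, near the share of all genes. Without 24 h replicate 1 or without 24 h replicate 3, still 12 morning genes rose and 1 fell.

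**Figure D1:**
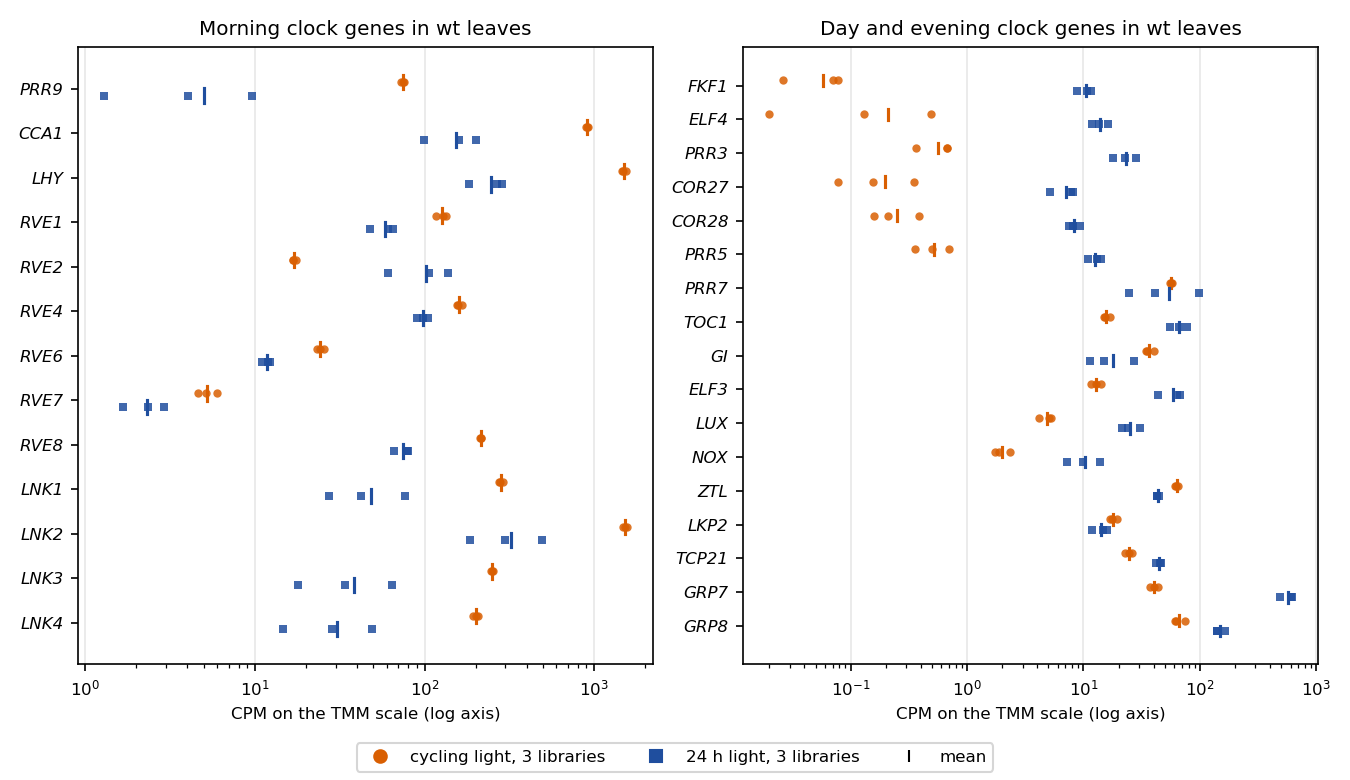
Level of each clock gene in each wt library, in CPM on a log axis, with cycling light as circles, 24 h light as squares (3 libraries each) and the mean as a bar. A level of 0 (1 cycling library of *ELF4*) is drawn at the left end. Cycling libraries of the morning genes lie close together, at 908, 926 and 901 CPM for *CCA1*. Those of 24 h light are spread from 98.9 to 202 CPM for this gene. Not all day and evening genes share this pattern, and *ELF4* is more scattered in cycling light. Evening genes such as *FKF1* lie far to the left in cycling light.

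Genes that peak in the day and evening were lower in cycling light at this hour. Of 17 genes in this list 13 fell, 2 rose and 2 were not called, and the median log2FC was -2.39. Where at least 10 counts were asked of every library, 8 fell, since genes near 0 in cycling light then left the test. *FKF1*, a blue light receptor and F-box protein of the afternoon, had the largest difference, at 0.0704, 0.0787 and 0.0261 CPM in cycling and 11.7, 8.88 and 10.8 CPM in 24 h light (log2FC -7.48, SE 0.29, padj = 3.40e-08). This rests on 5 counts in the 3 cycling libraries against 936 counts in 24 h light. The ratio after scaling by library size and TMM factor was 194, with an exact 95% interval of 82.7 to 598 that covers counting error only. *ELF4*, of the evening complex, was at 0.493, 0 and 0.131 CPM in cycling and 16.4, 13.5 and 11.7 CPM in 24 h light (log2FC -6.04, SE 0.41, or -7.40 without cycling replicate 1). Both genes were thus close to undetected 1 h after dawn in plants that had been through a night.

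The other components of the evening complex fell by less. *ELF3* was at 11.6, 12.7 and 14.2 CPM in cycling and 67.9, 63.1 and 43.8 CPM in 24 h light (padj = 1.43e-06, log2FC -2.18, SE 0.15), and *LUX*, its DNA-binding subunit, at 5.28, 5.03 and 4.18 CPM against 30.3, 24.2 and 21.2 CPM (log2FC -2.40, SE 0.15, padj = 6.15e-07). *NOX*, a close relative of *LUX*, had a log2FC of -2.39, and 45.9% of its length overlaps a gene on the opposite strand. *TOC1*, the pseudo-response regulator of the evening, was at 16.8, 15.1 and 15.3 CPM in cycling and 77.9, 65.6 and 54.9 CPM in 24 h light (log2FC -2.07, SE 0.12, padj = 3.51e-07). None of these genes had overlapping groups.

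The pseudo-response regulators thus split by their time of day. *PRR9*, of the morning, was higher, and *PRR5*, *PRR3* and *TOC1*, of the afternoon and evening, were lower. *PRR5* was at 0.704, 0.354 and 0.497 CPM in cycling and 14.2, 10.8 and 12.9 CPM in 24 h light (padj = 9.43e-08, log2FC -4.60, SE 0.21), and *PRR3* at 0.568 ± 0.175 and 23.0 ± 5.01 CPM (n = 3, log2FC -5.38). *PRR7*, which lies between them in the day, was at 55.0, 57.9 and 56.2 CPM in cycling and at 24.7, 41.0 and 97.9 CPM in 24 h light (log2FC 0.05, SE 0.37, padj = 0.917). Its groups overlapped through 24 h replicate 3 alone, and without that library it was higher in cycling light (log2FC 0.77, padj = 0.00225).

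Outputs of the clock moved with the evening genes. *GRP7*, an RNA-binding protein that forms a loop driven by the clock, was at 37.6, 40.4 and 43.7 CPM in cycling and 601, 489 and 615 CPM in 24 h light (padj = 1.09e-08, log2FC -3.81, SE 0.10), and its paralog *GRP8* had a log2FC of -1.16. *COR27* and *COR28*, which encode night-phased repressors of clock genes, were at 0.196 ± 0.141 and 0.251 ± 0.121 CPM in cycling and at 7.08 ± 1.64 and 8.31 ± 0.952 CPM in 24 h light (n = 3, log2FC -5.15 and -5.03). Without cycling replicate 1 the log2FC of *COR27* was -5.78. *TCP21*, a repressor of *CCA1*, fell by 0.86 on the log2 scale. The members that rose were *ZTL*, an F-box protein that targets TOC1 (log2FC 0.54, padj = 1.54e-05), and *GI*, a partner of the F-box proteins, at 35, 40.1 and 34.2 CPM in cycling and 11.3, 14.9 and 27.1 CPM in 24 h light (log2FC 1.04, padj = 5.07e-03). The call of *GI* was lost with DESeq2 and without any of cycling replicates 1, 2 and 3 or 24 h replicate 2.

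CCA1, LHY and the RVE proteins bind the evening element, a short promoter motif known from evening genes, so its letters AAAATATCT were sought on both strands from 250 bases before to 50 bases after the start of each gene. The windows below, 30 bases each from the RefSeq TAIR10.1 assembly and read 5′ to 3′ on the strand named, show the motif in capitals in genes of the day and evening list, in *CCL* and in starch breakdown genes described further on. They are shown because these genes fell in cycling light and carry the motif.
FKF1 (chr1:25508443-25508472, minus strand): gatattccgagAAAATATCTagcctactca
PRR5 (chr5:8358714-8358743, plus strand): gtggagaaaagAAAATATCTagaaaaaatc
TOC1 (chr5:24674802-24674831, minus strand): tcatcttggagAAAATATCTcatgatattt
LUX (chr3:17182979-17183008, plus strand): tagaagatctAAAATATCTagctaactcgt
NOX (chr5:24003835-24003864, minus strand): ctagataatctAAAATATCTtttacccgca
COR27 (chr5:17199911-17199940, minus strand): gcagttgaagAAAATATCTttgatattttt
GRP7 (chr2:9266569-9266598, minus strand): gtcccaagatAAAATATCTtttctcgcatc
GRP8 (chr4:18275209-18275238, plus strand): gtttcgagcaaAAAATATCTttgtaagaat
CCL (chr3:9827579-9827608, plus strand): tatcctttaaAAAATATCTtcttccttttg
ISA3 (chr4:5783860-5783889, minus strand): cattttcccggAAAATATCTtcttgtacga
PWD (chr5:9261436-9261465, minus strand): cacatgtccatAAAATATCTtctaaatatg
GWD1 (chr1:3590913-3590942, minus strand): aagataaacaAAAATATCTtctgcaattcg
These matches lay 186 bases before the gene start in *FKF1*, 187 in *PRR5*, 151 in *TOC1* and between 4 and 93 bases before it in the other 9.

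The evening element was found in 61 of 330 promoters of DEGs lower in cycling light (18.5%), in 8 of 439 of those higher (1.82%), in 3.02% of the promoters of 19508 genes tested and in 2.49% of all 37897 promoters of the annotation. Ordered by fold change, its share was 39.2% (20 of 51) among genes with a log2FC of -3 or lower, 16.5% between -3 and -2, 12.6% between -2 and -1.5, 9.86% between -1.5 and -1 and 3.34% between -1 and 0, and it was between 0.755% and 2.98% in each group of genes that were higher. It was present in 9 of 17 genes of the day and evening clock and in 2 of 13 of the morning clock, *PRR9* and *RVE7*. Counted on the strand of the gene alone, the shares were 10.9% of DEGs lower, 0.911% of DEGs higher and 1.59% of genes tested. Among all called genes they were 7.11% of those lower and 1.81% of those higher.

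A different pattern was seen for the G-box CACGTG, a palindrome bound by bZIP and bHLH factors such as HY5 and the PIFs. It occurred in 17.5% of DEGs higher, 16.4% of DEGs lower, 8.79% of genes tested and 6.46% of all promoters, and its share was highest at both ends of the fold change, 37.8% (14 of 37) above a log2FC of 3 and 25.5% at -3 or lower. It was present in 9 of 13 morning clock genes and in 7 of 20 starch breakdown genes. The I-box GATAAG, bound by MYB-related and GATA factors, was in 12.5% of DEGs higher, 20.3% of DEGs lower and 14.8% of genes tested. The CCA1 binding site AAAAATCT was at 7.29%, 9.70% and 8.12%. No motif contains another, and a match is a description of the sequence and not of binding.

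**Figure D2:**
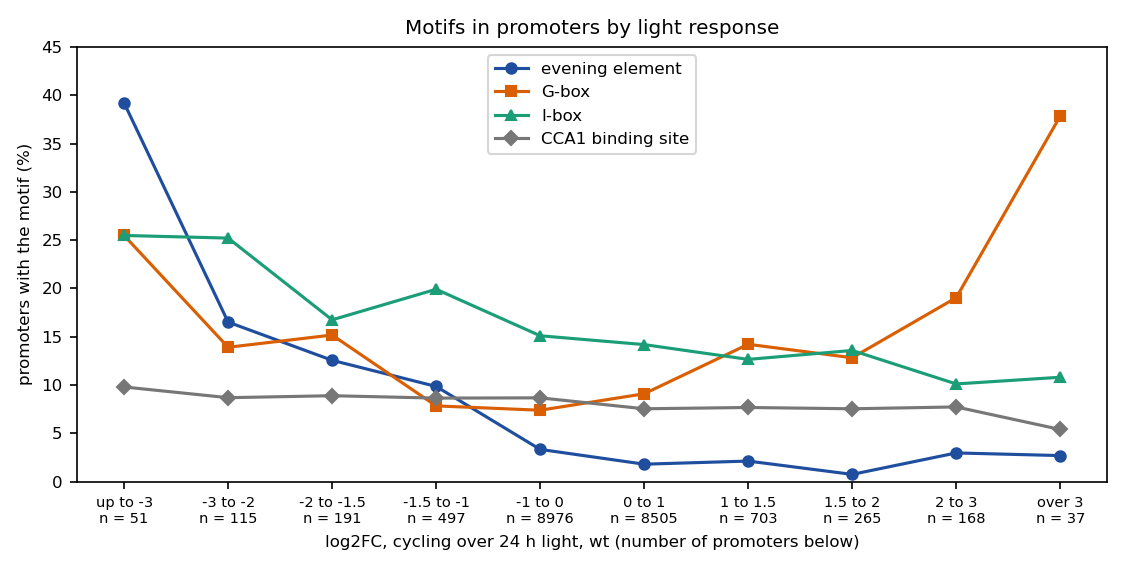
Share of promoters holding each motif, in percent, for genes grouped by their log2FC in wt (cycling over 24 h light), with the number of promoters under each group. The evening element falls from 39.2% at the left to 2.70% at the right, the G-box is high at both ends with 25.5% and 37.8%, and the CCA1 binding site shows no such spread.

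Outside the clock, the genes with the largest differences came from several functions. The 12 DEGs with the highest and the 12 with the lowest log2FC were taken by rank. Only DEGs with no overlap between the lights and a mean of at least 5 CPM in 1 light were ranked. *AT3G09450*, of the fusaric acid resistance family, had the highest log2FC, with 83.3, 80.3 and 87.2 CPM in cycling and 0.675, 1.26 and 4.61 CPM in 24 h light (log2FC 5.30, SE 0.36, padj = 1.23e-06, or log2FC 6.44 without 24 h replicate 3). *ELIP2*, a light-induced chloroplast protein related to the antenna proteins, was at 59.4, 49.0 and 53.5 CPM in cycling and 1.66, 1.4 and 2.54 CPM in 24 h light (log2FC 4.86, SE 0.15, padj = 1.74e-08). *ASG4*, a MYB-related gene also known as *RVE3*, was at 77.7, 78.6 and 77.0 CPM in cycling and 4.42, 5.13 and 5.26 CPM in 24 h light (log2FC 3.98, SE 0.075, padj = 2.25e-09). In all 3 genes the lowest cycling library was above the highest library of 24 h light by more than 10-fold. The others at this end were *AT1G26790*, a Dof zinc finger factor (log2FC 4.71), *AT1G69480*, of the EXS family (4.1), the transporter gene *ABCG27* (3.96), *AT3G48240* with a Phox/Bem1p domain (3.91), *AT1G24580* with a RING/U-box domain (3.78), the U-box ubiquitin ligase gene *PUB19* (3.74), *AT3G55580* of the RCC1 family (3.68), and *HSFA2* and *PRR9*, described elsewhere.

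At the low end, 6 of the 12 genes belonged to the day and evening clock list (*FKF1*, *ELF4*, *PRR3*, *COR27*, *COR28* and *PRR5*). *CCL*, a gene of short-lived transcripts under clock control, was at 17.9, 12.8 and 13.0 CPM in cycling and 370.4, 331 and 486 CPM in 24 h light (log2FC -4.77, SE 0.17, padj = 2.62e-08), with 17.5% of its sequence repeated elsewhere. *BT2*, a BTB and TAZ domain protein known to respond to sugar and nitrogen, was at 1.72, 2.60 and 2.61 CPM in cycling and 80.1, 49.0 and 39.8 CPM in 24 h light (log2FC -4.60, SE 0.28, padj = 6.24e-07). The remaining 4 were *AT2G39920*, annotated as an acid phosphatase of the HAD superfamily (log2FC -5.75, or -6.47 without cycling replicate 1 and -5.09 without cycling replicate 3), *AT1G56300* with a DnaJ domain (-5.70, with 41.6% of its length under a gene of the opposite strand), *AT3G62550*, an adenine nucleotide alpha hydrolase-like gene (-4.58), and *AT4G16146*, related to a cAMP-regulated phosphoprotein (-4.57). The evening element shown above was also found near the start of *AT1G56300*, *COR28* and *AT4G16146*.

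**Figure D3:**
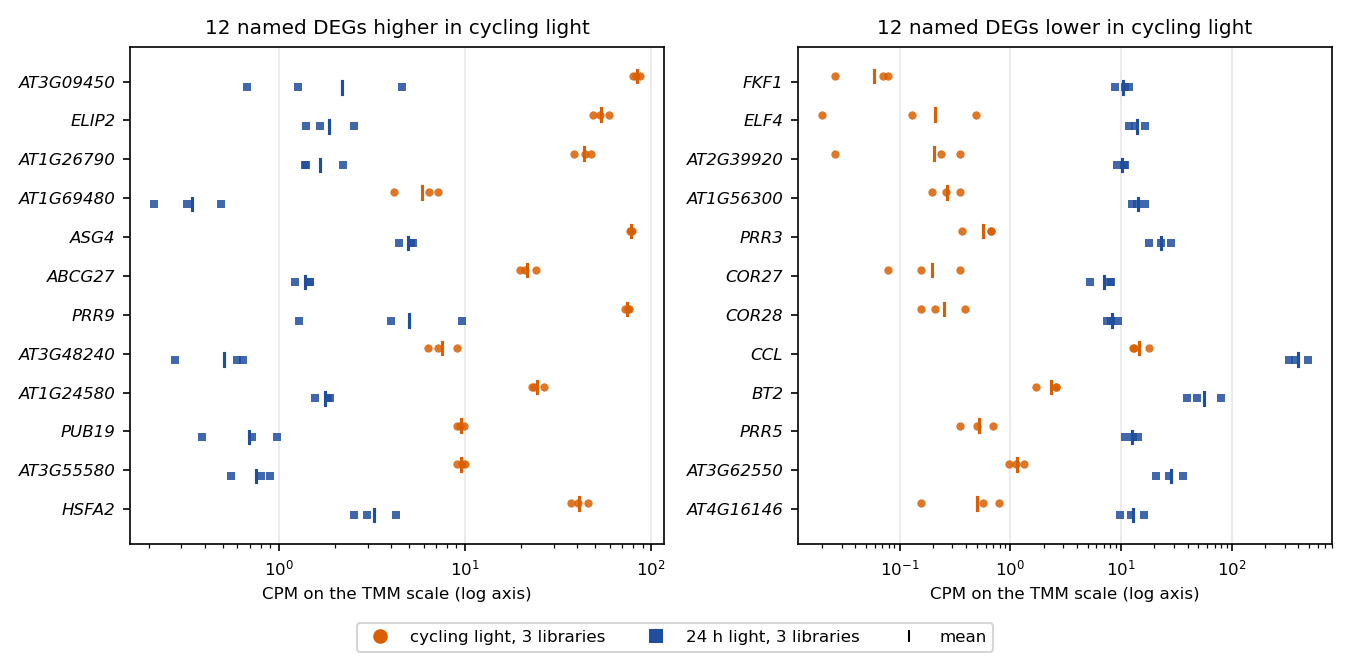
Level of the 24 named DEGs in each wt library, in CPM on a log axis, with cycling light as circles, 24 h light as squares (3 libraries each) and the mean as a bar. A level of 0 (*ELF4*) is drawn at the left end. The groups of no gene overlap, which the rule that chose the genes required, and the cycling libraries of *ASG4* (77.0 to 78.6 CPM) nearly coincide.

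The photoperiod pathway, which measures day length through CONSTANS, held 6 genes that rose, 3 that fell and 3 not called of 12 (median log2FC 0.70). *FT*, the mobile signal for flowering, was at 0.282, 0.669 and 0.941 CPM in cycling and 3.99, 4.53 and 3.36 CPM in 24 h light (log2FC -2.60, SE 0.33, padj = 9.64e-05). Its levels were low in both lights and did not overlap. *COL9*, a CONSTANS-like gene that delays flowering, was at 4.54, 5.55 and 5.49 CPM in cycling and 62.6, 52.9 and 34.4 CPM in 24 h light (log2FC -3.27, SE 0.21), and *TEM1*, a repressor of *FT*, had a log2FC of -1.52. The CDF repressors of *CO* and *FT* were higher, with *CDF3* at 131 ± 1.62 CPM in cycling and 45.9 ± 19.3 CPM in 24 h light (n = 3, log2FC 1.51) and *CDF1* at a log2FC of 1.42. *COL2*, close to *CO* in sequence, was at 348, 343 and 329 CPM in cycling and 55.6, 87.1 and 104 CPM in 24 h light (log2FC 2.05, SE 0.18, padj = 6.36e-06). *CO* itself was not called (log2FC -0.07, SE 0.15).

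Photoreceptors and their signalling partners were mostly higher in cycling light, with 17 that rose, 6 that fell and 3 not called of 26 (median log2FC 0.74). *HY5*, a bZIP factor that promotes photomorphogenesis, was at 69.5, 70.6 and 70.4 CPM in cycling and 15.6, 17.0 and 20.0 CPM in 24 h light (padj = 5.33e-08, log2FC 2.00, SE 0.083), and its homolog *HYH* had a log2FC of 2.14. *BBX18* and *BBX19*, B-box genes known to act against HY5 signalling, had log2FC values of 2.32 and 2.31, and *RUP2*, a repressor of the UV-B receptor, of 2.26. *BBX18* was at 97.2, 95.3 and 101 CPM in cycling and 15.9, 19.8 and 23.1 CPM in 24 h light. Of the photoreceptors, the red light receptor *PHYB* rose (log2FC 1.17, SE 0.062) and the blue light receptor *CRY2* fell, from 142 ± 5.83 CPM in 24 h light to 59.0 ± 3.45 CPM in cycling (n = 3, log2FC -1.26). *BBX22*, a B-box gene that promotes light responses, was lower too (log2FC -2.01, SE 0.11).

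The PIF factors, which drive elongation growth in dim light, and the shade markers listed with them moved in both directions. Of 15 genes tested 3 rose and 5 fell (53.3% called, median log2FC -0.42), and the number that fell was 2 without cycling replicate 2 and without cycling replicate 3, while the number that rose was 1 without 24 h replicate 2. *PIF7* was at 57.2 ± 2.77 CPM in cycling and 22.1 ± 3.68 CPM in 24 h light (n = 3, log2FC 1.38, padj = 2.85e-06). *IAA29*, a target of the PIFs, was at 1.06, 0.629 and 0.575 CPM in cycling and 3.44, 3.34 and 8.41 CPM in 24 h light (log2FC -2.75, SE 0.42, padj = 3.50e-04). *PIF4* had a log2FC of -1.62, a call lost without cycling replicate 2 or 3.

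Most genes of starch breakdown were lower in cycling light. In this list 13 genes fell, 4 rose and 3 were not called of 20 (median log2FC -0.98). Starch is first phosphorylated by GWD1 and PWD, and dephosphorylated by SEX4. *GWD1* was at 98.3, 95 and 89.5 CPM in cycling and 253, 266 and 310.3 CPM in 24 h light (padj = 2.10e-07, log2FC -1.55, SE 0.081), and *PWD* and *SEX4* had log2FC values of -1.69 and -1.95. The enzymes that then cut or debranch the glucan were lower as well, *AMY3* at 12.4, 12.3 and 13.2 CPM against 72.4, 79.6 and 134 CPM (log2FC -2.92, SE 0.21) and *ISA3* at 8.16, 7.16 and 5.96 CPM against 51.8, 46.2 and 44.3 CPM (log2FC -2.75, SE 0.11). All of these genes had every cycling library below every library of 24 h light. The glucan phosphorylases showed the same pattern, with *PHS2* at 23.8, 21.2 and 26.5 CPM in cycling and 207, 189 and 223 CPM in 24 h light (padj = 1.41e-08, log2FC -3.11, SE 0.092) and *PHS1* at a log2FC of -2.71, and so did the glucanotransferase genes *DPE1* (-2.34) and *DPE2* (-1.55). Of these genes *GWD1*, *PWD*, *ISA3* and *DPE1* had the evening element near their start.

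Some genes of the beta-amylases, a family that includes enzymes releasing maltose, went against most of the list. *BAM9*, *BAM1* and *BAM3* were called higher, while *BAM2*, *BAM4* and *BAM5*, also listed, were not. *BAM9*, which encodes a member without catalytic activity, was at 720.5, 710.1 and 673 CPM in cycling and 121, 144 and 121 CPM in 24 h light (log2FC 2.45, SE 0.082, padj = 2.00e-08). *BAM1* had a log2FC of 1.28 (SE 0.064), and *BAM3*, the main beta-amylase of the leaf at night, was at 1644, 1725 and 1572 CPM against 856, 859.7 and 536 CPM (log2FC 1.13, SE 0.16, padj = 1.71e-04). In all 3 the cycling libraries were higher with no overlap. The fourth member that rose was *LSF1*, a glucan-binding phosphatase homolog (log2FC 0.57).

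In the starch synthesis list 9 genes fell, 3 rose and 5 were not called of 17 (median log2FC -0.35). *GBSS1*, the granule-bound synthase that makes amylose and a known target of CCA1 and LHY, stood apart at 1628, 1746 and 1617 CPM in cycling and 106, 163 and 139 CPM in 24 h light (log2FC 3.61, SE 0.14, padj = 4.25e-08). *SS2*, a soluble synthase, rose by less (log2FC 1.25), while *PTST1*, which brings GBSS1 to the granule, *SBE2.1*, a branching enzyme, and *SS4*, which initiates granules, were lower (log2FC -1.5, -1.33 and -1.17).

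Of 25 genes tested from the list of dark and sugar starvation, 4 rose and 8 fell (48.0% called against 35.3% of all genes, median log2FC -0.17). With library size alone 2 rose and 9 fell. *DIN9*, a phosphomannose isomerase first found as a transcript of darkened leaves, was at 17.7 ± 0.275 CPM (n = 3) in cycling and at 3.22, 2.74 and 3.72 CPM in 24 h light (log2FC 2.46, SE 0.12, padj = 1.30e-07). *ASN1*, an asparagine synthetase induced in darkness, was at 11.6 ± 1.5 and 3.92 ± 1.67 CPM (n = 3, log2FC 1.58). In the trehalose phosphate synthase family 4 members fell and *TPS5* rose (log2FC 0.46, padj = 1.21e-03, a call lost with library size alone). *TPS11* was at 11.2, 13.5 and 11.4 CPM in cycling and 33.6, 40.8 and 76.8 CPM in 24 h light (log2FC -2.07, SE 0.27), and *TPS8*, *TPS10* and *TPS9* had log2FC values of -1.26, -0.95 and -0.78. The groups of these genes did not overlap in either direction.

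Few genes of the light-harvesting antenna, which feeds light energy to the photosystems, were called. Of 21 genes 18 were not called, 2 rose and 1 fell (median log2FC 0.02). *LHCB7*, a rare antenna gene, was at 58.1, 62.5 and 61.0 CPM in cycling and 21.5, 20.9 and 19.5 CPM in 24 h light (padj = 4.43e-08, log2FC 1.55, SE 0.062), and *LHCB1.4* was at 422, 437 and 395 CPM against 820.0, 1230 and 2288 CPM (log2FC -1.79, SE 0.29). The counts in this list depended on the libraries of 24 h light, being 6 higher and 2 lower without replicate 3 and 2 higher and 4 lower without replicate 1, and with library size alone they were 1 higher and 3 lower. Of 21 Calvin cycle genes 8 rose and 1 fell (median log2FC 0.18), the highest being the aldolase gene *FBA1* (log2FC 1.17), and without 24 h replicate 3 the number that fell was 4, and with library size alone it was 3. Photorespiration genes were higher, with 8 of 10 tested that rose (median log2FC 0.68). Of these *CAT2*, the catalase that removes hydrogen peroxide from photorespiration, was at 4279, 4749 and 4338 CPM in cycling and 1424, 1644 and 1171 CPM in 24 h light (log2FC 1.66, SE 0.12, padj = 1.89e-06).

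The tetrapyrrole pathway, in which *FC2* acts, held 7 genes that rose, 9 that fell and 14 not called of 30 (median log2FC -0.05), or 5 that rose and 14 that fell with library size alone. *PORB*, which encodes the light-dependent protochlorophyllide reductase that stays active in green leaves, was at 51.7, 51.0 and 55.4 CPM in cycling and 563, 495 and 599.9 CPM in 24 h light (log2FC -3.39, SE 0.085, padj = 7.93e-09). The genes of control points in the pathway went the other way. *HEMA1*, the first enzyme committed to tetrapyrroles, was at 1063, 1078 and 996 CPM in cycling and 325, 468 and 529 CPM in 24 h light (log2FC 1.25, SE 0.15), *GUN4*, an activator of magnesium chelatase, had a log2FC of 1.24 with 73.0% of its length under a gene of the opposite strand, and *CHLH*, a subunit of that chelatase, was at 4480, 4656 and 4113 CPM against 1701, 2362 and 2712 CPM (log2FC 0.97, SE 0.15). Cycling and 24 h libraries did not overlap for any of them. Without cycling replicate 2, the number of genes that rose in this list was 4. The other ferrochelatase gene, *FC1*, had a log2FC of 0.64.

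Photoprotection and carotenoid genes were higher in cycling light in 14 of 19 cases, with 1 lower (median log2FC 0.70), or 2 lower with library size alone. *SIG5*, a sigma factor through which light and the clock reach plastid transcription, was at 479, 494 and 463 CPM in cycling and 47.7, 62.7 and 60.0 CPM in 24 h light (log2FC 3.08, SE 0.099, padj = 1.74e-08). *ELIP1* was at 135, 119 and 136 CPM against 9.79, 15.3 and 15.1 CPM (log2FC 3.29, SE 0.14), and *BCH2*, a beta-carotene hydroxylase, at 136, 148 and 135 CPM against 19.5, 32.9 and 28.2 CPM (log2FC 2.38, SE 0.15). Each cycling library exceeded each library of 24 h light for all 3 genes. The member that fell was *VDE*, the violaxanthin de-epoxidase of the xanthophyll cycle, at 43.2 ± 1.66 CPM in cycling and 90.0 ± 1.72 CPM in 24 h light (n = 3, log2FC -1.06).

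In the flavonoid and anthocyanin list 10 genes rose and 1 fell of 23 (median log2FC 0.71). They included the entry enzyme *PAL1* (log2FC 1.33), the ligase *4CL3* (1.56) and the glucosyltransferase *UGT78D2*, at 203, 209 and 207 CPM in cycling and 60.2, 61.3 and 52.9 CPM in 24 h light (log2FC 1.83, SE 0.066, padj = 2.57e-08). *F3H* had a log2FC of 2.66, at levels under 3 CPM and with 93.8% of its length under a gene of the opposite strand. The late anthocyanin genes *DFR* and *LDOX* were not called (log2FC -0.04 and -0.07). The single call in the lower direction, *MYBL2*, was lost with DESeq2 and when any 1 of 4 libraries (cycling replicates 1, 2 and 3 and 24 h replicate 2) was left out.

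**Figure D4:**
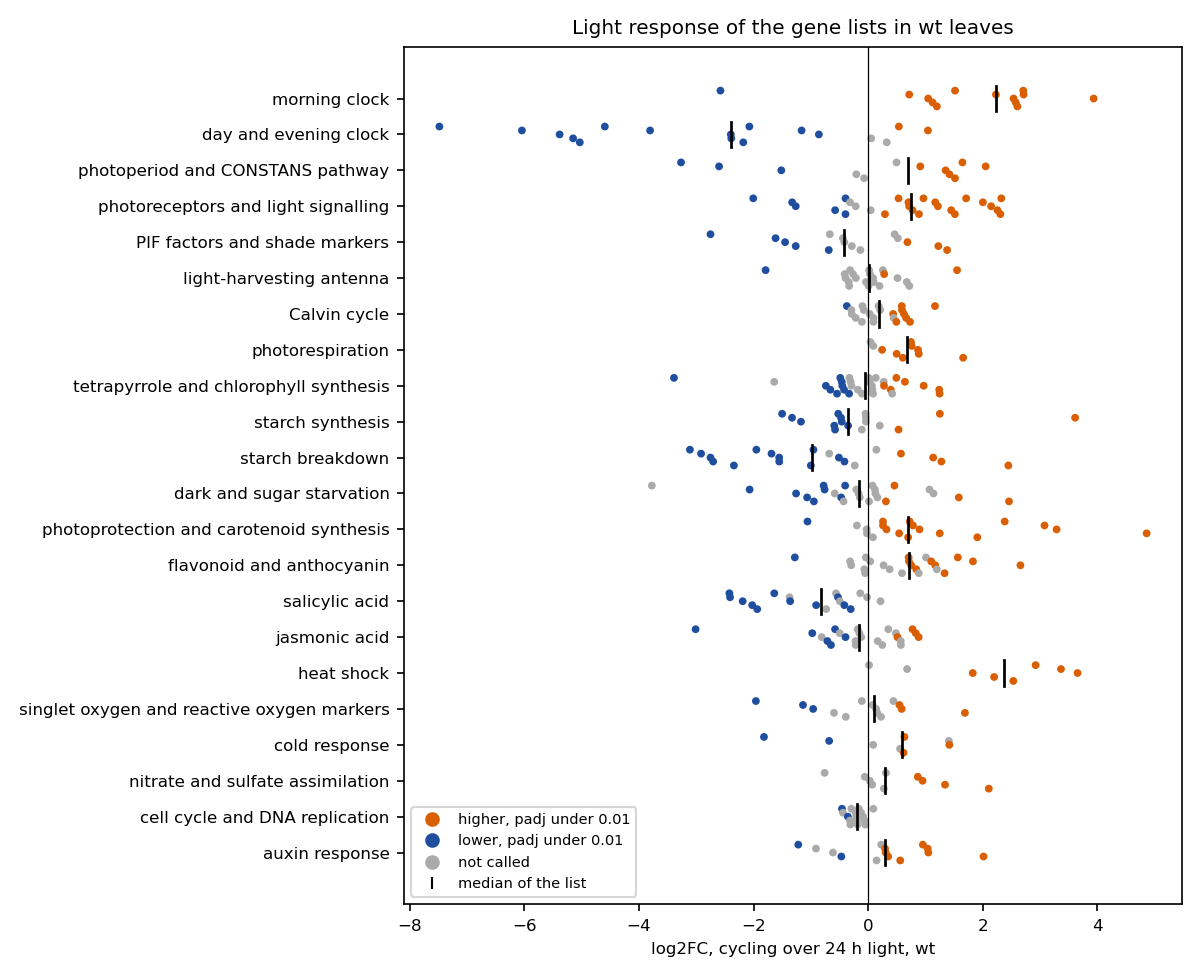
Log2FC (cycling over 24 h light) of every tested gene of 22 lists in wt, coloured by whether it was called at padj below 0.01, with the median of each list as a vertical bar. The morning clock has a median of 2.23 and the day and evening clock of -2.39, and starch breakdown (-0.98) and salicylic acid (-0.82) also lie away from the median of all genes, -0.00.

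Several heat shock genes were higher in cycling light. Of the 13 listed, 5 had too few counts to be tested and 6 of the other 8 were called higher, but a gene at low level in 24 h light, such as *HSP17.6II*, could enter the test only through the cycling libraries, so nothing is read from that count. *HSFA2*, a heat stress transcription factor, was at 37.1, 45.9 and 40.3 CPM in cycling and 2.98, 4.28 and 2.54 CPM in 24 h light (log2FC 3.65, SE 0.15, padj = 6.11e-08). The chaperone gene *HSP70* (AT3G12580) was at 77.5, 106 and 97.6 CPM against 9.97, 10.4 and 6.90 CPM (log2FC 3.36, SE 0.15), and the small heat shock genes *HSP17.8* and *HSP17.6II* had log2FC values of 2.92 and 2.53 at levels below 7 CPM. The groups of all 4 genes were separate. Markers of singlet oxygen and other reactive oxygen species were 3 higher and 3 lower of 14 tested (42.9% called, near the 35.3% of all genes, median log2FC 0.11), and the number higher was 1 without cycling replicate 1 or 2 or without 24 h replicate 2. *CAT3*, a catalase of the evening, was at 495, 437 and 479 CPM in cycling and 1663, 1834 and 1994 CPM in 24 h light (log2FC -1.96, SE 0.089, padj = 9.02e-08), against the direction of *CAT2*, and *FER1*, a plastid iron store, was at 133 ± 2.49 CPM in cycling and 41.3 ± 7.23 CPM in 24 h light (n = 3, log2FC 1.69).

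Genes of salicylic acid synthesis and response were lower in cycling light, 11 of 18 being called lower and the other 7 not called (median log2FC -0.82). *PR1*, the classical marker of salicylic acid, was at 43.2, 31.2 and 27.4 CPM in cycling and 211, 213 and 116 CPM in 24 h light (log2FC -2.41, SE 0.23, padj = 1.45e-05). *NIMIN1*, which binds the receptor NPR1, was at 3.27, 2.24 and 0.680 CPM against 12, 9.73 and 10.3 CPM (log2FC -2.42, SE 0.37), and *WRKY38* at 2.21 ± 1.12 and 8.96 ± 0.554 CPM (n = 3, log2FC -2.02). The synthesis gene *ICS1* was not called (log2FC -0.50, SE 0.19). Without 24 h replicate 1 the number called lower was 8, and without 24 h replicate 3 it was 9. Of 23 jasmonic acid genes 4 were higher and 6 lower (43.5% called, near the 35.3% of all genes, median log2FC -0.15). Those lower included synthesis genes, with *AOC2*, an allene oxide cyclase, at 12.3, 13.5 and 18 CPM in cycling and 101, 123 and 132 CPM in 24 h light (padj = 1.09e-07, log2FC -3.01, SE 0.14) and *LOX2* at a log2FC of -0.98.

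In the auxin list 8 genes rose and 2 fell of 14 (median log2FC 0.30), with *IAA17*, a repressor of auxin response, at 67.3, 62.7 and 62.6 CPM in cycling and 13.0, 15.0 and 19.8 CPM in 24 h light (log2FC 2.01, SE 0.12, padj = 5.86e-07). The number that rose was 5 without cycling replicate 1, 5 without cycling replicate 2 and 4 without 24 h replicate 2, and with library size alone 5 rose and 3 fell. Of 10 genes of nitrate and sulfate assimilation 4 rose (median log2FC 0.29). Of these, 3 act in sulfate reduction, with *APR2* at 1131, 1239 and 1129 CPM in cycling and 264, 294 and 255 CPM in 24 h light (log2FC 2.1, SE 0.079, 46.4% of its length under a gene of the opposite strand) and *APR3* and *APR1* at log2FC values of 1.34 and 0.87. Cold response genes were 3 higher and 2 lower of 8 tested (median log2FC 0.59), with *COR15B* at a log2FC of -1.82 and *KIN2* at 0.63. With library size alone 1 was higher and 2 lower. The count was 1 higher without cycling replicate 1, 24 h replicate 2 or 24 h replicate 3, and 1 lower without any 1 of the cycling libraries or without 24 h replicate 1.

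Cell cycle and DNA replication genes lay slightly below the median of all genes, with a median log2FC of -0.20 and 1 of 16 above 0. The 2 that were called, both lower, were *MCM5* (log2FC -0.46) and *PCNA2* (-0.36). The call of *PCNA2* was lost when any 1 of 5 libraries, cycling replicates 1, 2 and 3 and 24 h replicates 1 and 2, was left out. With library size alone 7 of 16 were lower. Transcripts encoded in the organelles were scarce in these poly(A)-selected libraries. Of 133 plastid loci 55 were tested and 1 was called higher, and of 146 mitochondrial loci 16 were tested and 1 was called lower, and either call was lost when some single library was left out.

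Of 1186 genes for transcription factors that were tested, 291 were higher and 151 lower, 37.3% in all against 35.3% of all genes. Families with B-box domains had the highest shares called, 83.3% of 12 CO-like genes (4 higher, 6 lower) and 70.0% of 10 double B-box genes (4 higher, 3 lower). The MYB-related family, to which CCA1, LHY and the RVE proteins belong, followed after TCP (66.7% of 21 genes) with 57.7% of 52 genes, 21 higher and 9 lower, and the number lower was 5 without cycling replicate 2 or 3 and 4 without 24 h replicate 2. For TCP it was 5 lower, or 3 without cycling replicate 2. In the CO-like family *BBX16* was at 237 ± 6.74 CPM in cycling and 44.5 ± 13.6 CPM in 24 h light (n = 3, log2FC 2.42), and *BBX17* at 1.79 ± 0.192 and 17.1 ± 0.168 CPM (n = 3, log2FC -3.26). Those 2 genes were named after their values were seen.

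The light response of wt was set beside those of the mutants, each measured in its own 6 libraries. *fc2* plants accumulate a photosensitizing intermediate and singlet oxygen in cycling light, and the *pub4* mutation blocks cell death in that background. In *fc2 pub4*, 20.7% of all genes tested were called higher in cycling light and 19.4% lower. Of the 440 wt DEGs that were higher, 434 were tested in *fc2 pub4* and 403 (92.9%) were called higher there, and of the 330 that were lower, 326 were tested and 297 (91.1%) were called lower. In *fc2*, where 22.7% of all genes were called higher and 21.3% lower, the counts were 343 of 433 (79.2%) and 229 of 326 (70.2%), and a further 2 and 21 were called in the opposite direction. The median log2FC of the DEGs higher was 1.95 in wt, 2.14 in *fc2 pub4* and 1.43 in *fc2*, and that of the DEGs lower was -1.98, -1.99 and -1.52. The wt values chose these genes, so only the values of the mutants are free of that choice.

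Tested as an interaction of genotype and light, the response of *fc2 pub4* differed from that of wt for 3 of the 440 DEGs higher and 0 of the 330 lower, against 0.248% of 20185 genes tested. At an unadjusted p under 0.05 the numbers were 134 (30.5%) and 78 (24%), against 16.3% of all genes tested, and DESeq2 called 21 and 16, against 2.3% of the genes it adjusted. For *fc2* the interaction was called for 171 of 440 (38.9%) and 131 of 330 (39.7%), against 31.3% of 20411 genes tested. For 141 and 119 of these the interaction was opposite in sign to the wt change, so that the response in *fc2* was smaller, absent or reversed. The wt libraries that chose the DEGs also enter these interactions and are shared by both of them. Of the 24 named DEGs, all 24 had the sign of wt in both mutants, 0 had an interaction with *fc2 pub4* by edgeR (4 at an unadjusted p under 0.05, 2 by DESeq2), and 9 had one with *fc2* by edgeR (17 and 8). Without wt 24 h replicate 3 the number with *fc2* was 5.

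In *fc2* the fall of *COR28* was -1.35 on the log2 scale (SE 0.27) against -5.03 in wt (SE 0.25, interaction 3.71, SE 0.45), and that of *PRR5* was -2.54 against -4.60 (interaction 2.08, SE 0.53). *HSFA2* rose by 0.79 in *fc2*, against 3.65 in wt (interaction -2.84, SE 0.26), and by 2.57 in *fc2 pub4* (interaction -1.07, SE 0.24, padj = 0.038). Thus the light responses of these genes kept their sign and were smaller in *fc2*. *AT1G69480* went the other way, its log2FC being 6.35 in *fc2*, 3.93 in *fc2 pub4* and 4.1 in wt. *ELIP2* had the widest difference from *fc2 pub4*, 6.89 there against 4.86 in wt (interaction 2.04, SE 0.35, padj = 0.012).

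**Figure D5:**
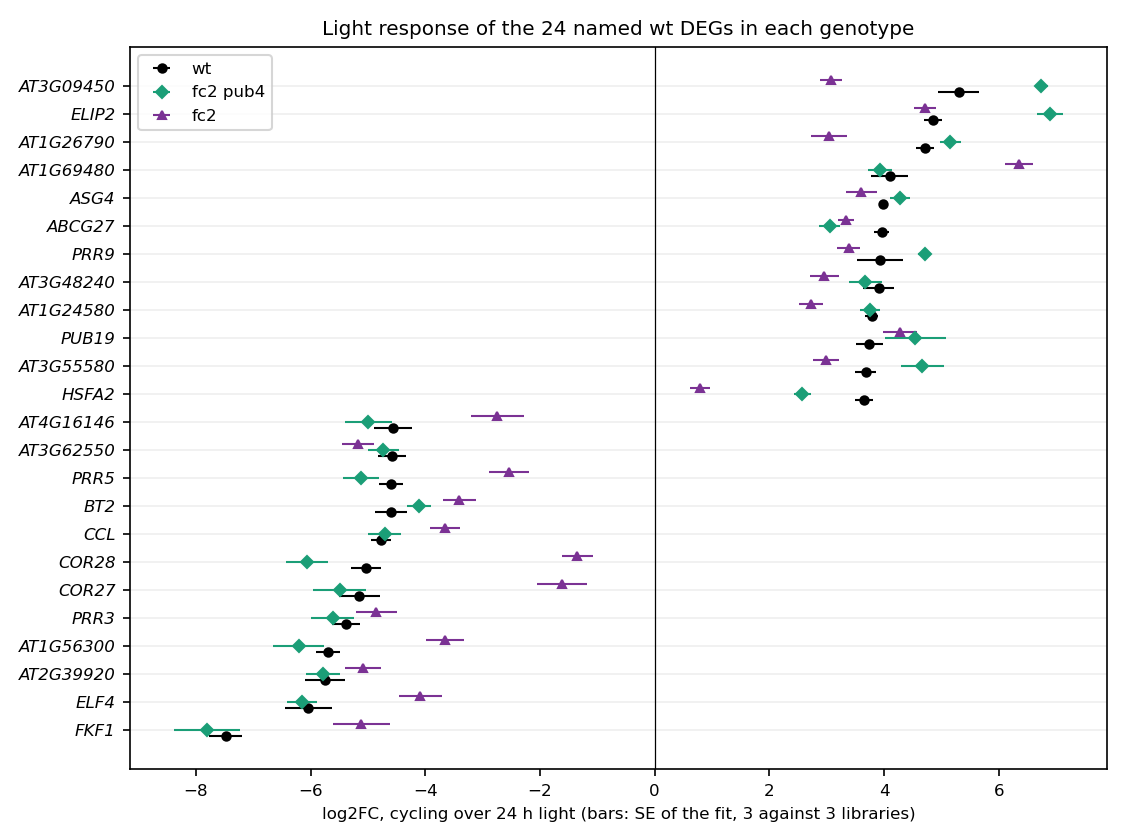
Log2FC (cycling over 24 h light) of the 24 named wt DEGs in wt, *fc2 pub4* and *fc2*, with bars for the SE derived from the F statistic of each test (3 against 3 libraries). Every point lies on the wt side of 0, *fc2 pub4* lies near wt for most genes, and *fc2* lies nearer to 0 for *COR28* (-1.35), *COR27* (-1.61) and *HSFA2* (0.79).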

How the data were processed

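Stranded mRNA libraries (TruSeq) of total leaf tissue were sequenced as 50-base single-end reads. The authors aligned the reads to TAIR10 and deposited 1 table of raw read counts per gene for 33602 loci. The submitters' processing notes name HISAT2 2.1.0, StringTie 1.3.4 and DESeq2. The strand setting of the counting is not given in the sources used here. Opposite-strand overlaps above 10% of the length are therefore stated for ranked and listed genes mentioned in the text. Members that enter only the counts of a list are left out, such as *COL1* (100%) and *MYC2* (98.5%). The labels give 17 and 19 days of growth, and the text of the paper gives 16 and 18 days in one place. The labels were followed.

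Genes were kept by filterByExpr and tested with edgeR 4.0.16 in R 4.3.3 (TMM scaling, quasi-likelihood fit on the 6 wt libraries, Benjamini-Hochberg adjustment over all 19600 genes, two-sided). A DEG had an absolute log2FC above 1.5 and padj below 0.01, and a gene was called at padj below 0.01. Light responses of genotypes were compared as an interaction in 12 libraries. Totals of 26994499 to 39382316 counts per library set the precision, and intervals cover counting error only. The biological coefficient of variation was 8.87%. Replicates are separate pools of 3 plants, and no pair of libraries agreed within sampling noise.

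Named genes were the 12 highest and 12 lowest DEGs with separated libraries and a mean of at least 5 CPM in 1 light, all clock list members, up to 4 called members per direction of every other list, *FC2*, *PUB4* and the markers. Other genes in the text are members of these lists that were picked after their values were seen. Members and lists were chosen with earlier results of these data known. Promoters (250 bases before to 50 after the annotated gene start) and gene names came from RefSeq TAIR10.1, in which 32835 loci were matched and 767 were not. The fits were tested on simulated data. Alternatives were DESeq2 1.42.0, other scaling, filters and thresholds, a replicate block, organelle loci left out, all 18 libraries in 1 fit, and each replicate left out in turn.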

Additional observations from a re-analysis of the deposited data

Results flagged for a closer look

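The interaction was looked up for 47 of the genes named above, the 24 DEGs and the other members of both clock lists, and not for other genes. In 11 of these 47 the light response of *fc2* differed from that of wt by the interaction test of edgeR on 12 libraries. The values are the log2FC (cycling over 24 h light) of *fc2* minus that of wt. Among genes that were lower in cycling light in wt, the difference was 3.71 for *COR28*, 3.56 for *COR27*, 2.08 for *PRR5*, 2.07 for *AT1G56300* and 1.12 for *TOC1*, so that they fell by less in *fc2*, and it was -1.05 for *TCP21*, which fell by more. Among genes that were higher in cycling light in wt, it was -2.84 for *HSFA2*, -2.19 for *AT3G09450*, -1.66 for *AT1G26790* and -1.03 for *AT1G24580*, which rose by less in *fc2*, and 2.27 for *AT1G69480*, which rose by more. Such differences were common, since 31.3% of 20411 genes had a called interaction with *fc2*.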

How the results depend on the processing

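The counts of DEGs and of called genes in wt stayed within 1.5 times their values under every alternative run, except that library size alone gave 4980 called lower and a fold cutoff of 1 gave 1007 DEGs higher and 732 lower. DESeq2 called 774 DEGs, of which 751 were shared (97.5% of those of edgeR and 97.0% of its own). Leaving out each wt library in turn gave 407 to 463 DEGs higher and 305 to 335 lower, and 2973 to 3573 genes called higher and 2309 to 3198 lower. The number of named DEGs with an interaction with *fc2 pub4* was 1 with no filter on low counts, 2 with DESeq2, 2 at a padj threshold of 0.05 and 0 to 1 with each replicate left out, and that with *fc2* was 4 with at least 10 counts in every library and 5 to 10 with each replicate left out. Same-numbered libraries of the 2 lights did not deviate together (correlations of -0.109, -0.00774 and 0.0786). With 3 libraries per light this cannot show whether they shared a batch, which the labels do not give. The replicate block gave 431 DEGs higher and 322 lower, 3512 and 2841 called genes, and 7 and 0 interactions with *fc2* and *fc2 pub4*. Of 183 named genes tested, 164 were called, 27 of these lost the call in at least 1 of 15 settings and 8 others gained it, and no call reversed. A gene that left the test in a setting was not counted as losing its call there. Depth limits the named DEGs with under 10 counts in at least 1 wt library. In cycling light they were *FKF1*, *ELF4*, *COR27*, *COR28*, *AT2G39920*, *AT1G56300*, *PRR5* and *AT4G16146*, and in 24 h light *AT1G69480* and *AT3G48240*. These genes left the tests, also those of the interactions, where at least 10 counts were asked of every library. No alternative bears on the hour of sampling.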
